A study of Caenorhabditis elegans with 15 samples.

Results

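The protease genes described here are all genes of the count table whose names join *asp*, *cpr*, *cpl*, *cpz*, *nep* or *try* to a number and that had at least 10 counts in at least 3 libraries. Of 64 genes with such names, 55 met this rule, among 46756 genes in the table. They were 14 aspartic proteases (*asp*), 6 cathepsin B-like (*cpr*), 1 cathepsin L-like (*cpl*) and 2 cathepsin Z-like (*cpz*) cysteine proteases, 23 neprilysin-like metalloproteases (*nep*) and 9 trypsin-like serine proteases (*try*). The 9 left out were *asp-9*, *asp-15*, *asp-16*, *asp-18*, *asp-19*, *cpr-2*, *nep-7*, *nep-24* and *nep-25*, with at most 26 counts in any library. *asp-12* and *nep-16* were singled out with earlier results of these data in view.

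The study sequenced total RNA of whole *Caenorhabditis elegans*, a nematode worm, in 15 libraries, 3 from each of 5 strains. N2 is the wild-type strain. *nrx-1* (ok1649) and *nrx-1* (tm1961) carry mutations of the worm's neurexin gene, whereas *nlg-1* (tm474) and *nlg-1* (ok259) carry mutations of its neuroligin gene. Neurexin and neuroligin are partner adhesion proteins of the synapse. Strains with ok alleles came from one stock center and strains with tm alleles from another, and tm1961, ok259 and tm474 were not backcrossed before sequencing, so each allele stands for 1 strain with its own background. All strains were synchronized young adults kept alike, with no treatment. A library holds RNA of many whole worms, so fewer cells of a type and less RNA per cell cannot be told apart in these values. The labels call the 3 libraries of a strain biological replicates, and the study's methods describe them as separate worm preparations.

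Secreted and lysosomal proteases let the worm live on bacteria. The intestine makes aspartic and cathepsin-type cysteine proteases that digest food in the gut lumen and break down proteins in lysosomes. Neprilysins are zinc metallopeptidases, mostly anchored in the cell membrane with the active site outside the cell, and are best known in animals for cutting small peptides, neuropeptides included. Trypsin-like serine proteases of the worm act among other places in seminal fluid, where TRY-5 activates sperm.

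Several of the genes lie in clusters. In the Ensembl annotation of WBcel235, 17 of the 55 have another of them as a direct neighbour. *asp-6*, *asp-12*, *asp-5* and the pseudogene *asp-11* follow each other on chromosome V between 8267511 and 8275757. *nep-19*, *nep-20*, *nep-9*, *nep-10* and *nep-8* follow each other on chromosome II between 3388280 and 3406851. Of the *nep* genes 16 are on chromosome II, and of the *asp* genes 11 are on V. The annotation calls 52 of the 55 protein coding and *asp-11*, *nep-14* and *nep-19* pseudogenes. Exons of 14 overlap those of another protein-coding gene, 11 on the other strand, and the strand setting of the counting is not given in the sources used here, so their counts are less certain. The study counted uniquely mapped reads, so genes in a cluster may also lose counts where their sequences are close.

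Total counts ran from 10152578 to 26211067 per library. The targeted genes were counted in every library. The mean level of *nrx-1* was 10.6 CPM (a count scaled to the size of its library, with TMM factors) in N2, 5.56 in *nrx-1* (tm1961) and 7.78 in *nrx-1* (ok1649), and that of *nlg-1* was 14.7 CPM in N2, 3.34 in *nlg-1* (tm474) and 9.06 in *nlg-1* (ok259). In the strains where *nlg-1* is not the mutated gene, its mean was 6.65 CPM with the ok1649 allele and 7.81 CPM with the tm1961 allele, both below that of *nlg-1* (ok259), and none of its differences from N2 passed the test (edgeR, adjusted p = 0.333 to 0.588). Where in each gene the reads fell, and so their relation to the deletions, was not given by a count per gene. The libraries of a strain did not lie together. The abundant genes *rpr-1*, an RNA of ribonuclease P, R144.15 and ZC155.8 took 2.57% to 3.4% of the counts in N2, 1.42% to 5.02% in replicate 1 of *nrx-1* (ok1649), *nlg-1* (ok259) and *nlg-1* (tm474) and in replicate 3 of *nlg-1* (tm474), and 11.6% to 23% in the other 8 libraries. The 6 *vit* (yolk protein) genes summed to between 120200 and 164300 CPM in replicate 1 of *nrx-1* (ok1649), *nlg-1* (ok259) and *nlg-1* (tm474), against 8836 to 19970 CPM in N2 and 356.2 to 8268 CPM in the other 9 libraries.

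In N2, aspartic proteases led the list. Per kilobase of exon, *asp-1*, an intestinal aspartic protease, had 6038 ± 1940 CPM (SD, n = 3, as for the values that follow). *asp-6*, another aspartic protease, had 1827 ± 367 CPM per kilobase. *asp-3*, a lysosomal aspartic protease, had 1101 ± 296 CPM per kilobase, and *asp-5* had 1056 ± 281 CPM per kilobase. *asp-3* and *asp-5* did not differ beyond their spread.

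Cathepsin-type enzymes came next in N2. *cpl-1*, the cathepsin L that processes yolk in the embryo, had 855 ± 201 CPM per kilobase, *cpr-4* 811 ± 249 CPM per kilobase and *cpr-1*, a cathepsin B of the gut, 720 ± 241 CPM per kilobase. These 3 lay within each other's spread. *cpz-1*, the cathepsin Z needed for molting, had 254 ± 126 CPM per kilobase and *cpz-2* had 89.2 ± 5.95 CPM per kilobase. The highest neprilysin was *nep-17*, with 248 ± 73.3 CPM per kilobase, level with *cpz-1* and in place 13 of the 55, and the next, *nep-22*, had 39.3 ± 11.8 CPM per kilobase. The highest trypsin-like gene was *try-1*, with 14.6 ± 8.57 CPM per kilobase, followed by *try-7* with 3.93 ± 0.861 CPM per kilobase. *nep-16* stood at place 52 with 0.524 ± 0.351 CPM per kilobase, and *try-5* at place 55 with 0.272 ± 0.0344 CPM per kilobase.

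Across the 5 strains, *nep-16* was the member that passed the test. The edgeR quasi-likelihood F test of any difference among the strains called 1 of the 55 at an adjusted p (Benjamini-Hochberg) below 0.05, against 0.0402% of all 17395 genes tested. *nep-16* (WBGene00018472) codes for a neprilysin-like protein and lies on the minus strand of chromosome IV, 7635653 to 7641858. Its levels were 2.24, 2.01 and 0.356 CPM in N2 replicates 1, 2 and 3. They were 64.8, 170 and 54.6 CPM in *nlg-1* (tm474). These values did not overlap, and the 3 *nlg-1* (tm474) libraries were far above all others.

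In the remaining strains *nep-16* stayed near the N2 level. It had 0.583, 1.85 and 0.712 CPM in *nrx-1* (ok1649), 1.78, 0.335 and 0.192 CPM in *nrx-1* (tm1961), and 0.145, 2.84 and 2.21 CPM in *nlg-1* (ok259), which carries the other allele of the same gene. In raw counts, *nep-16* had 405, 3784 and 1366 in *nlg-1* (tm474) and between 2 and 62 in the other 12 libraries. Per kilobase of exon, its mean in *nlg-1* (tm474) was 32.9 CPM, close to that of *nep-22* in N2.

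The F test gave *nep-16* an adjusted p of 0.0102 (edgeR), the sixth smallest p of all genes. The adjusted p was 0.0567 without *nrx-1* (tm1961) replicate 2 and 0.0771 without *nlg-1* (tm474) replicate 2, where no member passed, and it ran from 4.07e-15 to 0.0771 over all alternatives. Against N2 alone, *nep-16* was 62.4-fold higher in *nlg-1* (tm474), a log2 fold change of 5.96 ± 0.88 (standard error; edgeR), which did not pass adjustment over 15947 genes (adjusted p = 0.331). DESeq2 on the same 6 libraries gave an adjusted p of 1.82e-12, and the range over all alternatives was 1.31e-16 to 1. The log2 fold change stayed between 5.09 and 6.30 over all alternatives. Against *nlg-1* (ok259) it was 5.78 ± 1.14 (adjusted p = 0.299, edgeR on 15 libraries), a contrast chosen after the values were seen.

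The genes around *nep-16* did not share its level. The 5 genes on each side of it had log2 fold changes from -0.34 to 1.13 in *nlg-1* (tm474), with unadjusted p of at least 0.116 in edgeR. Its exons overlap those of *warf-1* on the other strand, and *warf-1* had a mean of 3.22 CPM in N2 and 5.96 CPM in *nlg-1* (tm474).

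*asp-12* had its lowest levels in *nrx-1* (ok1649). *asp-12* (WBGene00017678) codes for an aspartic protease and lies on the plus strand of chromosome V, 8269210 to 8272056, between *asp-6* and *asp-5*. Its levels were 102, 114 and 52.7 CPM in N2. They were 3.72, 0.774 and 1.01 CPM in *nrx-1* (ok1649). These groups did not overlap, and the highest *nrx-1* (ok1649) library was far below the lowest N2 library.

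*asp-12* was also below N2 in *nrx-1* (tm1961), with 13.4, 10.8 and 4.6 CPM, and in *nlg-1* (ok259), with 31, 2.79 and 4.71 CPM. In *nlg-1* (tm474) it had 51.2, 22.8 and 81.4 CPM, which overlapped N2. All 3 libraries of the first 3 mutant strains therefore lay below all N2 libraries, and those of *nlg-1* (tm474) did not.

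In *nrx-1* (ok1649) the level of *asp-12* was 50.2-fold lower, with a log2 fold change of -5.65 ± 0.84 (edgeR, adjusted p = 0.212). The adjusted p was 4.66e-12 with DESeq2 and 0.00431 on leaving out replicate 1 of the strain. It was 0.621 on leaving out N2 replicate 1, the largest over all alternatives. Without replicate 1 of the strain many genes passed. At an adjusted p below 0.05 and a log2 fold change above 1 in size, 21.2% of all genes were higher there and 24.6% lower. In *nrx-1* (tm1961) the log2 fold change was -3.19 ± 0.52 (edgeR, adjusted p = 0.0745), with adjusted p = 0.00712 under the replicate block and 3.3e-06 with DESeq2. In *nlg-1* (ok259) it was -3.15 ± 0.90 (edgeR, adjusted p = 0.263) and in *nlg-1* (tm474) -0.89 ± 0.52 (adjusted p = 0.654). Under the replicate block in *nrx-1* (tm1961), here and for the genes below, 16% of all genes were higher and 15.5% lower by the same criteria. In the F test across strains the adjusted p of *asp-12* was 0.31, and from 7.21e-06 to 0.991 over all alternatives.

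The neighbours of *asp-12* gave a measure of it within each library. Set against *asp-5*, a ratio chosen after the values were seen, *asp-12* was at 6.65%, 7.68% and 5.81% in N2 and at 0.283%, 0.328% and 1.04% in *nrx-1* (ok1649). It was at 2.02%, 3.62% and 2.8% in *nrx-1* (tm1961) and at 2.45%, 2.06% and 3.29% in *nlg-1* (ok259). The 9 libraries of these 3 strains were all below N2 in this ratio. In *nlg-1* (tm474) it was 3.88%, 10.7% and 6.66%, which spanned the N2 values. In replicate 1 of *nrx-1* (ok1649), *asp-5* (1313 CPM) was within the N2 range of 908 to 1534 CPM and *asp-6* (2629 CPM) was just above its highest N2 value, 2616 CPM, while *asp-12* was at 3.72 CPM.

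**Figure D1:**
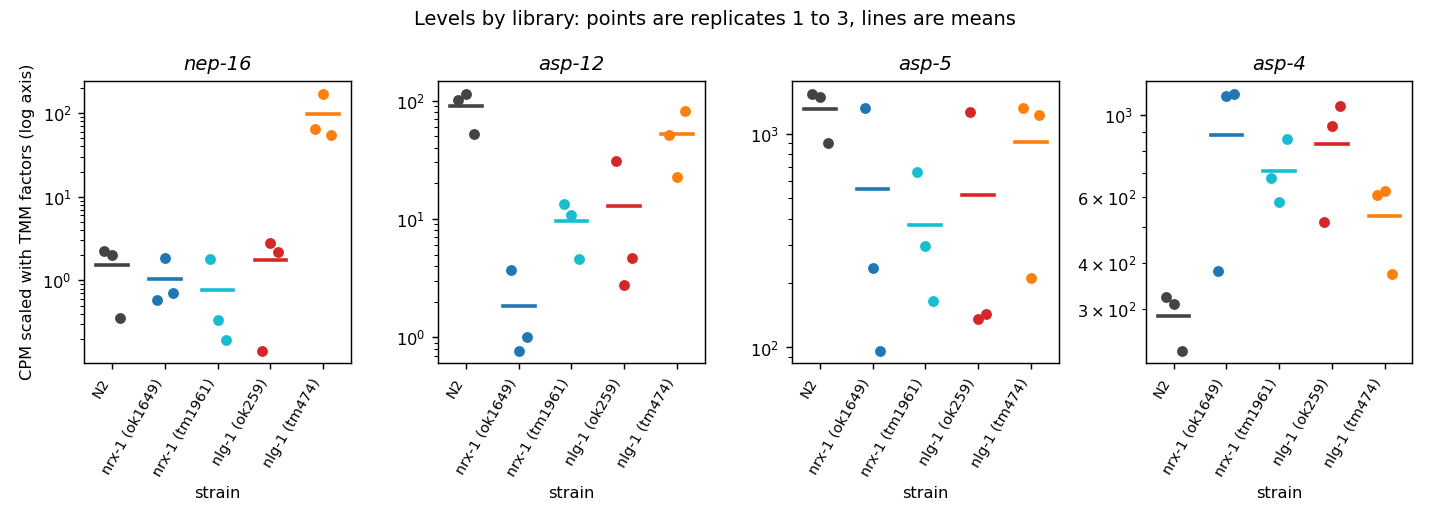
Levels of *nep-16*, *asp-12*, *asp-5* and *asp-4* in CPM scaled with TMM factors (log axis) by strain, where points are replicates 1 to 3 and lines are means. *nep-16* lies at 54.6 CPM or more in *nlg-1* (tm474) and at 2.84 CPM or less elsewhere, *asp-12* is lowest in *nrx-1* (ok1649), and *asp-5* is spread within strains.

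Between mutant strains, none of the 55 genes passed the adjusted p and fold criteria in any of the 6 pairs (edgeR on 15 libraries), against 0%, 0.0287% or 0.0345% of all genes. At an unadjusted p below 0.05 there were 1 for *nrx-1* (tm1961) against *nrx-1* (ok1649) (1.14% of all genes), 2 for *nlg-1* (ok259) against *nrx-1* (ok1649) (1.02%) and 2 for *nlg-1* (tm474) against *nrx-1* (ok1649) (1.36%). There were 0 for *nlg-1* (ok259) against *nrx-1* (tm1961) (1.25%), 3 for *nlg-1* (tm474) against *nrx-1* (tm1961) (2.28%) and 4 for *nlg-1* (tm474) against *nlg-1* (ok259) (1.66%). DESeq2 was not run on these pairs. Besides *nep-16*, *asp-12* was higher in *nlg-1* (tm474) than in *nrx-1* (ok1649), with a log2 difference of 4.82 ± 0.99 (edgeR, adjusted p = 0.269).

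The abundant gut proteases varied widely within strains. *asp-1* had 7511, 9329 and 4734 CPM in N2 and 7435, 1156 and 400.0 CPM in *nrx-1* (ok1649). It had 2903, 1791 and 832 CPM in *nrx-1* (tm1961). Its levels in *nlg-1* (ok259) were 7560, 401 and 402 CPM and in *nlg-1* (tm474) 8872, 1158 and 6886 CPM. Replicate 1 of *nrx-1* (ok1649), *nlg-1* (ok259) and *nlg-1* (tm474) and replicate 3 of *nlg-1* (tm474) were thus within the N2 range, and the other 8 mutant libraries were all below it.

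The same 4 libraries had 1929 to 2505 CPM of *asp-3*, at the upper end of the N2 range of 1117 to 1929 CPM or above it. They had 1091 to 1301 CPM of *asp-14*, another aspartic protease, all above the N2 range of 270 to 757 CPM. The other 8 mutant libraries had 117 to 907 CPM of *asp-3* and 108 to 326 CPM of *asp-14*. *nep-17*, the most abundant neprilysin, had 1155, 1597 and 887 CPM in N2, 2335, 157 and 57.5 CPM in *nrx-1* (ok1649) and 1573, 175 and 1646 CPM in *nlg-1* (tm474). Its levels in *nlg-1* (ok259) were 1578, 68.7 and 123 CPM and in *nrx-1* (tm1961) 289, 202 and 112 CPM. The same 4 libraries were within or above the N2 range, and *nrx-1* (tm1961) had no such library.

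The 4 libraries named are those with 1.42% to 5.02% of counts on *rpr-1*, R144.15 and ZC155.8, and the 8 others those with 11.6% to 23%. Summed over the 55 genes, the level was 15050 to 23600 CPM in N2, 21310 to 24130 CPM in the 4 libraries and 3514 to 11250 CPM in the 8. The 10 intestine markers, *act-5* and *elt-2* among them, summed to 1356 to 2658 CPM in N2, 1994 to 3057 CPM in the 4 and 502.8 to 1212 CPM in the 8, and none of them was at 0 in any library. In the 4, most of this sum was *act-5*, an actin of the gut lining, at 1330 to 2081 CPM. In the 8 it had 106.5 to 636.9 CPM, and was most of the sum only in *nrx-1* (tm1961) replicate 2. N2 replicate 3 was also within the range of the 8 for *act-5*. The single markers did not all split this way. *elt-2*, the main transcription factor of the intestine, had 14.4 to 20.7 CPM in the 4 and 4.91 to 18.7 CPM in the 8, *pho-1*, an acid phosphatase, 53.6 to 85.7 CPM in the 4 and 26.5 to 172 CPM in the 8, and *elt-7*, a related transcription factor, 3.68 to 7.40 CPM in the 4 and 6.27 to 9.98 CPM in the 8.

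The pharynx and body wall muscle sums split in the same way, so the split was not one of gut genes alone. The 5 pharynx markers summed to 337.8 to 550.8 CPM in N2, 293.9 to 731.2 CPM in the 4 libraries and 36.49 to 213.8 CPM in the 8. The 4 body wall muscle markers summed to 3734 to 11240 CPM in N2, 8314 to 17540 CPM in the 4 and 845.1 to 5056 CPM in the 8. Molting genes (101 to 3688 CPM in the 4 and 62.4 to 1249 CPM in the 8), sperm genes (2089 to 4396 CPM and 1975 to 4935 CPM) and neuron markers (289.8 to 418.6 CPM and 182 to 418.7 CPM) overlapped between the 4 and the 8. Singly, *unc-54* and *unc-15* of muscle and *myo-1* and *myo-2* of pharynx, the bulk of those sums, split as the sums did. *myo-3*, *tnt-4*, *pha-4* and *ceh-22* overlapped between the 4 and the 8. The muscle marker *tni-1* was lower in replicate 1 of *nrx-1* (ok1649), *nlg-1* (ok259) and *nlg-1* (tm474) than in any of the 8. The part of these markers in the protease levels was not tested.

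**Figure D2:**
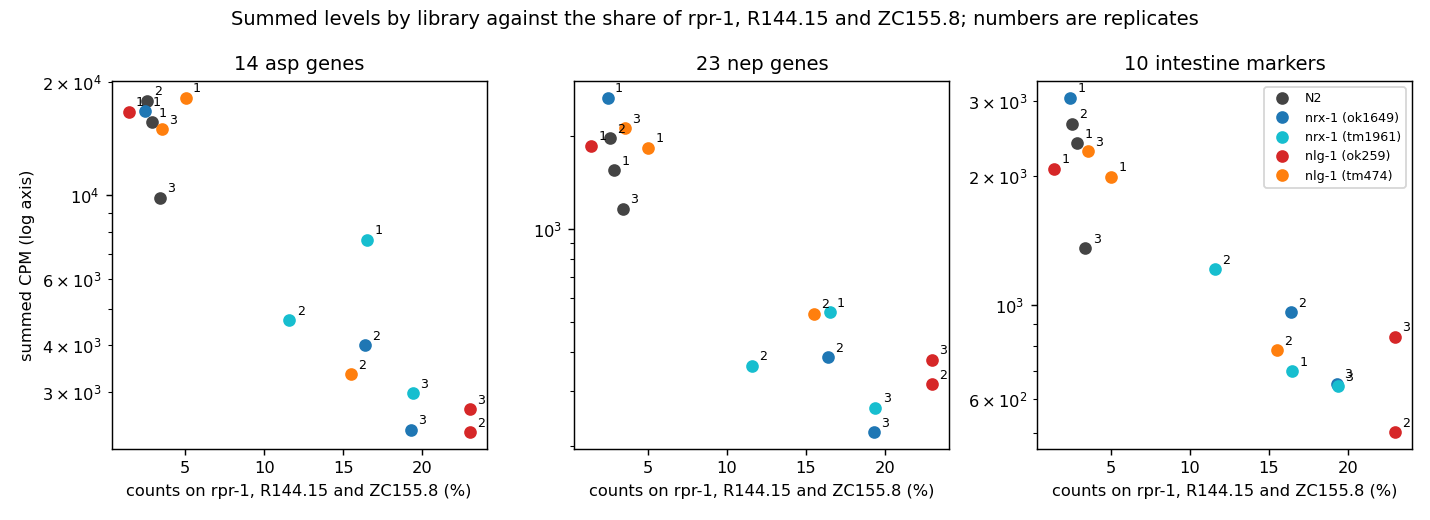
Summed CPM (log axis) of the 14 *asp* genes, the 23 *nep* genes and the 10 intestine markers in each library, against the percent of counts on *rpr-1*, R144.15 and ZC155.8, with replicate numbers beside the points. Libraries at 5.02% or less sit at the top and those at 11.6% or more below, within strains as well as between them.

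Among cysteine proteases, *cpr-4* and *cpr-1* were below N2 also in some of the 4 libraries where *asp-1* was not. *cpr-4*, a secreted cathepsin B, had 945, 621 and 1181 CPM in N2 and 233, 105 and 105 CPM in *nrx-1* (ok1649). It had 449, 169 and 105 CPM in *nrx-1* (tm1961) and 565, 128 and 66.8 CPM in *nlg-1* (ok259). All 9 of these libraries were below N2. In *nlg-1* (tm474) it had 223, 193 and 688 CPM, of which replicate 3 was within the N2 range.

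For *cpr-4* the log2 fold change came to -2.68 ± 0.72 in *nrx-1* (ok1649) (edgeR, adjusted p = 0.212) and -2.19 ± 0.83 in *nlg-1* (ok259) (adjusted p = 0.323), and DESeq2 gave it an adjusted p of 0.000853 in the former. In the F test across the 5 strains its unadjusted p was 0.0413 and its adjusted p 0.924. *cpr-1* had 759, 526 and 1044 CPM in N2, 276, 50.8 and 49.9 CPM in *nrx-1* (ok1649) and 301, 155 and 438 CPM in *nlg-1* (tm474), with no overlap with N2. It had 119 to 477 CPM in *nrx-1* (tm1961), also below N2, and 24.2 to 753 CPM in *nlg-1* (ok259), which overlapped N2. Its log2 fold change came to -2.64 ± 0.90 in *nrx-1* (ok1649) (edgeR, adjusted p = 0.219) and -1.49 ± 0.52 in *nlg-1* (tm474) (adjusted p = 0.588).

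*cpr-5*, a further cathepsin B, had 675, 592 and 452 CPM in N2 and 289, 49.5 and 36.7 CPM in *nlg-1* (ok259), all below N2. Its log2 fold change there was -2.53 ± 0.83 (edgeR, adjusted p = 0.291). All libraries of *nrx-1* (ok1649), at 61.6 to 373 CPM, and of *nrx-1* (tm1961), at 84.5 to 267 CPM, were also below N2. In *nlg-1* (tm474) *cpr-5* had 112 to 549 CPM, which overlapped N2. *cpl-1* varied in both directions. It had 744 to 1189 CPM in N2 and 2089, 2722 and 2248 CPM in replicate 1 of *nrx-1* (ok1649), *nlg-1* (ok259) and *nlg-1* (tm474), which are those with the highest *vit* levels, and also 170 to 346 CPM in replicates 2 and 3 of *nrx-1* (ok1649). *cpz-1* had 379, 249 and 129 CPM in N2 and 28.2 to 256 CPM in the mutants, and *cpz-2* 150, 137 and 132 CPM in N2 and 58.2 to 300.2 CPM in the mutants, with overlap in every strain.

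*nep-13* was the neprilysin that lay below N2 in all 12 mutant libraries. It had 5.35, 9.54 and 8.04 CPM in N2, 4.45, 3.16 and 2.14 CPM in *nrx-1* (ok1649) and 3.06, 2.91 and 1.96 CPM in *nrx-1* (tm1961). Its levels in *nlg-1* (ok259) were 2.25, 1.78 and 2.66 CPM and in *nlg-1* (tm474) 2.72, 2.33 and 4.36 CPM. The highest mutant library was below the lowest N2 library. The log2 fold change was -2.02 ± 0.46 in *nlg-1* (ok259) (edgeR, adjusted p = 0.203) and -1.49 ± 0.37 in *nrx-1* (tm1961) (adjusted p = 0.0745), and the F test across strains gave an adjusted p of 0.924.

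Of the other neprilysins, *nep-22* had 119, 121 and 66.7 CPM in N2 and 34.4, 41.8 and 30.3 CPM in *nrx-1* (tm1961), without overlap. *nep-10* had 3.16, 6.34 and 5.27 CPM in N2 and 1.68, 2.08 and 1.36 CPM in *nrx-1* (ok1649), a log2 fold change of -1.61 ± 0.49 (edgeR, adjusted p = 0.212). In *nlg-1* (tm474) it had 1.28, 2.02 and 2.28 CPM, a log2 fold change of -1.42 ± 0.57 (edgeR, adjusted p = 0.588). Both strains were without overlap with N2, and so, narrowly, was *nrx-1* (tm1961), with 2.01 to 3.15 CPM. In *nlg-1* (ok259) *nep-10* had 1.42 to 5.97 CPM, which overlapped N2. *nep-1*, a neprilysin of pharynx and neurons, had 79.5, 50.6 and 27 CPM in N2 and 6.23 to 70.4 CPM in the mutants, and *nep-2*, which acts in olfactory learning, 61, 59.7 and 32.9 CPM in N2 and 6.85 to 86.6 CPM in the mutants. Both overlapped N2 in every mutant strain.

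*asp-4* was higher than N2 in every mutant library, against the direction of most aspartic proteases. *asp-4* codes for the cathepsin D of the lysosome, which takes part in necrotic cell death. It had 322, 310 and 232 CPM in N2 and 381, 1126 and 1141 CPM in *nrx-1* (ok1649). It had 677, 585 and 865 CPM in *nrx-1* (tm1961), 607, 626 and 374 CPM in *nlg-1* (tm474), and 516, 933 and 1060 CPM in *nlg-1* (ok259). The 3 mutant libraries with the lowest levels were replicate 1 of *nrx-1* (ok1649), replicate 3 of *nlg-1* (tm474) and replicate 1 of *nlg-1* (ok259), each among the 4 named above.

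The log2 fold change of *asp-4* was 1.34 ± 0.32 in *nrx-1* (tm1961) (edgeR, adjusted p = 0.0745, and 0.0149 under the replicate block) and 1.32 ± 0.55 in *nlg-1* (ok259) (adjusted p = 0.344). It was 0.81 ± 0.43 in *nlg-1* (tm474) (edgeR, adjusted p = 0.624), and in *nrx-1* (ok1649) the level was 2.83-fold that of N2 (adjusted p = 0.279). *asp-13*, also an aspartic protease, had 70.3 to 117 CPM in N2 and 73.1 to 181 CPM in the mutants, with overlap in all strains. *asp-7*, with 1.05, 0.867 and 1.14 CPM in N2, had 0, 0.0897 and 0.12 CPM in *nlg-1* (tm474), which are 0 to 3 counts against 19 to 32 in N2. *asp-7* had 10 counts or more in only 2 mutant libraries and met the count rule through N2, so its difference from N2 is a description and no test is given.

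The trypsin-like genes were scarce, and their fold changes against N2 were mostly above 0. *try-3*, a serine protease, had 1.24, 1.64 and 1.64 CPM in N2 and 1.31, 9.17 and 7.24 CPM in *nrx-1* (ok1649). It had 4.89, 3.15 and 4.02 CPM in *nrx-1* (tm1961) and 2.4, 6.96 and 8.12 CPM in *nlg-1* (ok259), both without overlap. In *nlg-1* (tm474) it had 1.76, 5.11 and 2.88 CPM, also without overlap. Its log2 fold changes were 1.84 ± 0.66, 1.45 ± 0.36 and 1.74 ± 0.60 in these strains (edgeR, adjusted p = 0.223, 0.0745 and 0.303). In *nrx-1* (tm1961) the adjusted p was 0.0216 under the replicate block. Exons of *try-3* overlap those of *best-9* on the same strand.

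*try-5*, the seminal fluid protease that activates sperm, had 0.274, 0.319 and 0.249 CPM in N2 and 0.729, 1.31 and 1.54 CPM in *nrx-1* (ok1649). In *nlg-1* (tm474) it had 1.12, 1.21 and 0.48 CPM, and in *nrx-1* (tm1961) 1.09, 0.972 and 0.67 CPM. In *nlg-1* (ok259) it had 0.218, 0.778 and 0.802 CPM, and replicate 1, with 3 counts, was below every N2 library. The other 11 mutant libraries were above N2, on 7 to 29 counts against 6 or 7. *try-5* did not reach 10 counts in any N2 library and met the count rule through the mutants, so these values are a description and no test is given. *swm-1*, which codes for a protease inhibitor that acts on TRY-5, had 16.2 to 19.4 CPM in N2 and 22.1 to 73.7 CPM in the 12 mutant libraries, and the male neuron genes *lov-1* and *pkd-2* had 0 to 8 counts in every library. Their part in the result was not tested.

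*try-1*, a serine protease, was highest in replicate 1 of 3 strains. It had 8.6, 11.9 and 25.6 CPM in N2, 51, 6.97 and 11 CPM in *nrx-1* (ok1649), 74.3, 4.94 and 4.21 CPM in *nlg-1* (ok259), 69.6, 19.2 and 6.56 CPM in *nlg-1* (tm474) and 3.01, 17.9 and 26.4 CPM in *nrx-1* (tm1961). Far above N2 were only the 3 libraries with the highest *vit* levels, and replicate 3 of *nrx-1* (tm1961) was just above it. *try-10* had 2.1, 2.19 and 3.27 CPM in N2 and 5.54, 3.16 and 13.2 CPM in *nrx-1* (ok1649), a log2 fold change of 1.43 ± 0.59 (edgeR, adjusted p = 0.252), with overlap. *try-7* had 3.66 to 5.73 CPM in N2 and 1.12 to 13.3 CPM in the mutants.

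**Figure D3:**
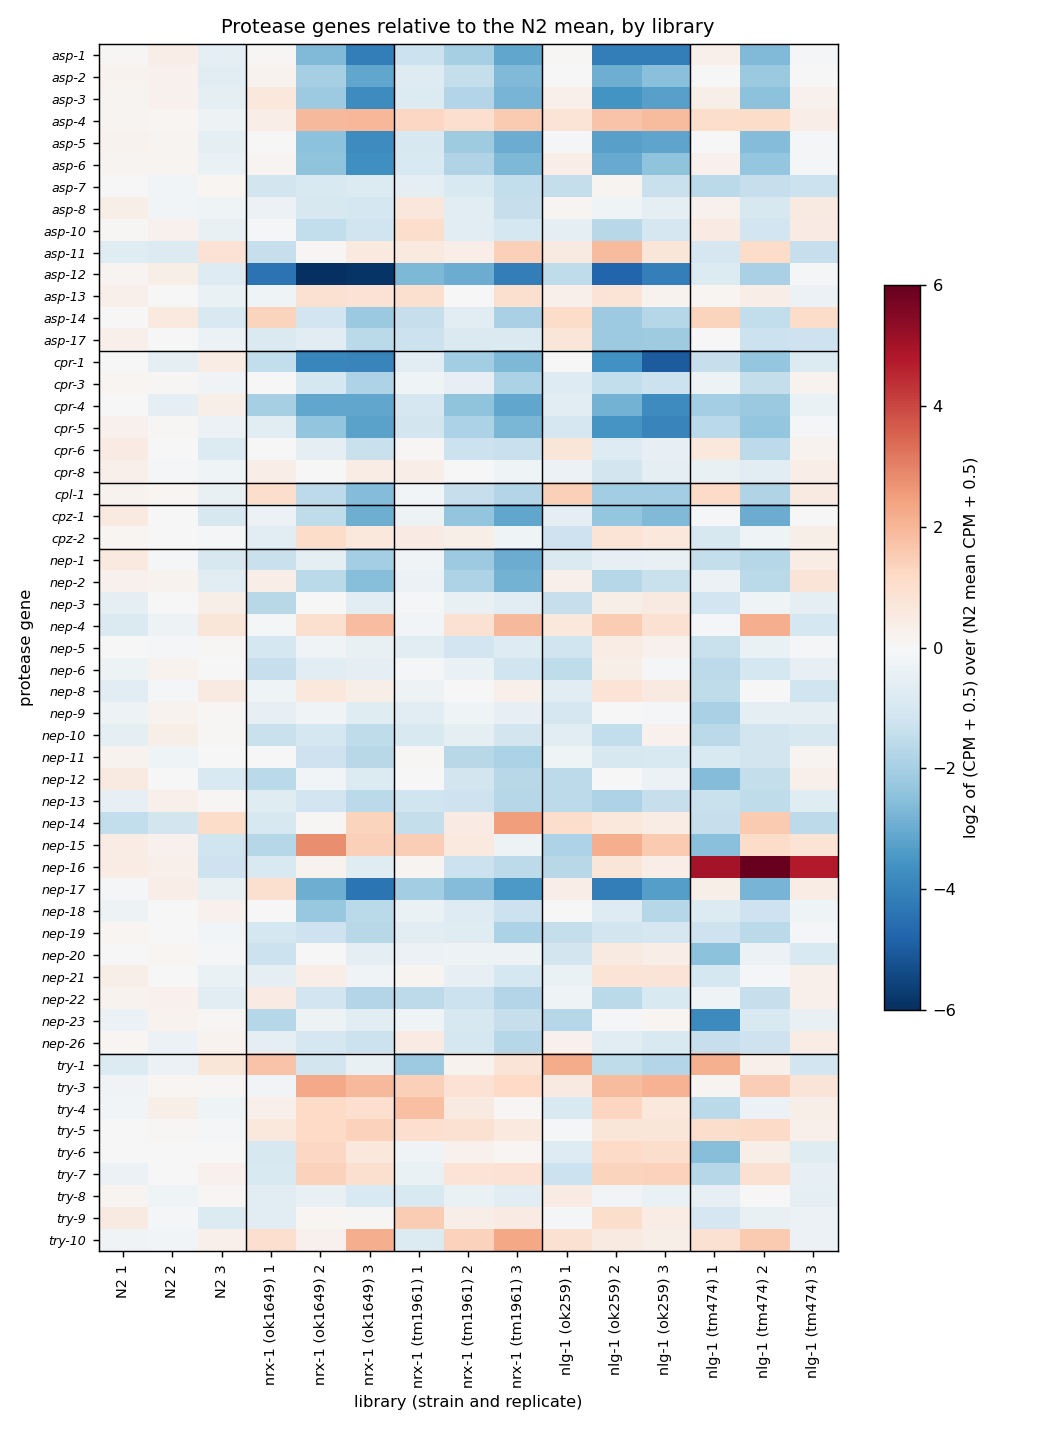
Level of each of the 55 genes in each library relative to the N2 mean, as log2 of (CPM + 0.5) over (N2 mean CPM + 0.5), with genes in rows by family and libraries in columns by strain. *nep-16* is dark red in *nlg-1* (tm474) alone, *asp-12* is blue in most mutant libraries and *asp-4* is red in all of them.

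Counted by strain, the 55 genes lay mostly below N2. In *nrx-1* (ok1649), 3 of 54 tested were higher and 9 lower, *try-5* among the former and *asp-7* among the latter, at an unadjusted p below 0.05 (edgeR), against 13% and 5.11% of all genes. The median log2 fold change was -0.70, and 0.16 over all genes tested. By family the medians were -0.93 for *asp*, -1.27 for *cpr*, -0.74 for *nep* and 0.90 for *try*, and with the share of *rpr-1*, R144.15 and ZC155.8 as a covariate the *asp* median was -0.19. At an adjusted p below 0.05 with a log2 fold change above 1 in size, edgeR called 0 of the 54 (0.0251% of all genes) and DESeq2 0 higher and 3 lower (2.29% and 1.44%), *asp-12*, *cpr-4* and *cpr-1*. Without replicate 1 of the strain, edgeR called 6 higher and 26 lower, against 21.2% and 24.6% of all genes. Without N2 replicate 2 the 12 at an unadjusted p became 7, where the share of all genes was not computed.

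In *nrx-1* (tm1961), 3 of 54 were higher, *asp-4*, *try-3* and *try-5*, and 17 lower at an unadjusted p below 0.05 (edgeR), against 18.6% and 15.6% of all genes. The lower ones included 9 of 14 *asp* (*asp-7* among them), 3 of 6 *cpr* and 5 of 23 *nep* genes. The medians were -0.76 over the members, 0.11 over all genes, -1.29 for *asp*, -1.14 for *cpr*, -0.81 for *nep* and 1.40 for *try*. *nep-17* (log2 fold change -2.56 ± 0.45, adjusted p = 0.0745) and *asp-1* (-1.93 ± 0.52, adjusted p = 0.0762) were among the lower (edgeR). None of the 54 passed the adjusted p and fold criteria, as was so for all genes (0%), while DESeq2 called 2 higher and 12 lower (10.3% and 9.53%).

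The replicate block changed these calls. Blocked by replicate number, the edgeR test called 6 members higher and 20 lower in *nrx-1* (tm1961), against 16% and 15.5% of all genes, with adjusted p = 0.00905 for both *nep-17* and *asp-1*. The pairing rests on correlations between libraries alone. Without replicate 1 of the strain, 4 were higher and 22 lower (18.9% and 17.6%). With the share of *rpr-1*, R144.15 and ZC155.8 as a covariate on 15 libraries, 0 were called. The member median was then 0.11 against 0.20 over all genes, the *asp* median 0.49 and the *cpr* median 0.21. The log2 fold changes of *nep-17* and *asp-1* were 0.47 and 0.74, whereas that of *asp-12* was -1.49. That share was 11.6% to 19.4% in *nrx-1* (tm1961) and 2.57% to 3.4% in N2, without overlap. Share and strain therefore cannot be told apart in this comparison.

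In *nlg-1* (ok259), 2 of 54 were higher, *asp-4* and *try-3*, and 10 lower at an unadjusted p below 0.05 (edgeR), against 6.44% and 7.76% of all genes. The lower ones were 2 *asp*, 3 *cpr*, 1 *cpz* and 4 *nep* genes. The medians were -0.57 over the members, 0.03 over all genes, -1.25 for *asp*, -1.66 for *cpr*, -0.60 for *nep* and 0.62 for *try*, and with the share covariate the *asp* median was 0.06. With the adjusted p and fold criteria edgeR called 0, as for all genes (0%), and DESeq2 called 0 higher and 3 lower (1.31% and 2.7%), *asp-12*, *nep-13* and the pseudogene *nep-19*. Without replicate 1 of the strain, edgeR called 5 higher and 23 lower (19.4% and 22.9% of all genes). The 12 at an unadjusted p became 4 without N2 replicate 1 and 6 without N2 replicate 2. They became 6 and 5 without replicates 2 and 3 of the strain. The shares of all genes beside these counts were not computed.

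In *nlg-1* (tm474), 2 of 54 were higher, *nep-16* and *try-5*, and 4 lower at an unadjusted p below 0.05 (edgeR), against 5.2% and 3.21% of all genes. The 4 were *asp-7*, *cpr-1*, *nep-10* and *nep-13*. In the counts of all strains *try-5* and *asp-7* lend no support, since each met the count rule through the group where it was high. The medians were -0.52 over the members, 0.08 over all genes, -0.43 for *asp* (0.13 with the share covariate), -0.79 for *cpr*, -0.65 for *nep* and 0.41 for *try*, which was below 0 with DESeq2 (-0.09) and 5 other alternatives. With the adjusted p and fold criteria edgeR called 0, as for all genes (0%), and DESeq2 called *nep-16* higher and 0 lower (0.116% and 0.171%). The 6 at an unadjusted p became 3 without N2 replicate 2, 2 without N2 replicate 3 and 17 without replicate 3 of the strain. How the share of all genes moved in these fits was not computed, so the counts are not read as a result about the members.

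**Figure D4:**
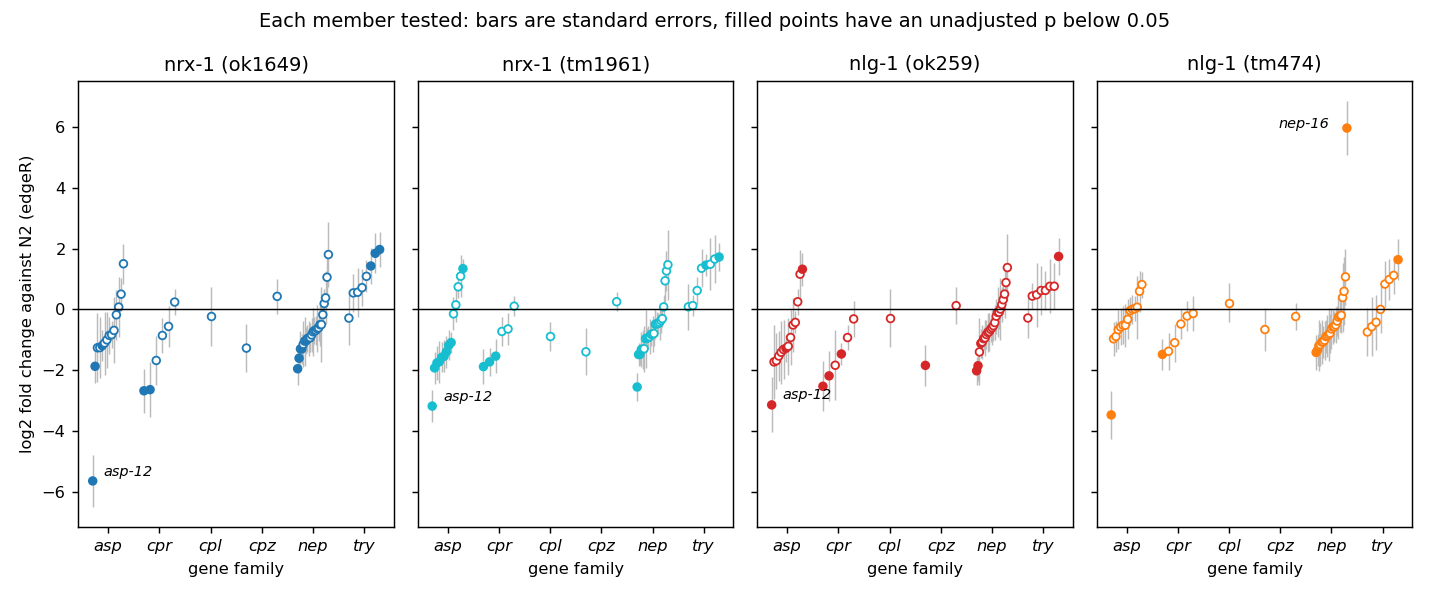
Log2 fold change against N2 (edgeR, 3 libraries against 3) of each member tested, by family and strain, where bars are standard errors and filled points have an unadjusted p below 0.05. *nep-16* stands alone at 5.96 in *nlg-1* (tm474), and *asp-12* is lowest in *nrx-1* (ok1649) at -5.65.

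Counts of genes whose libraries did not overlap with N2 were as follows. In *nrx-1* (ok1649), 2 members were above and 13 below all N2 libraries (15.9% and 7.41% of all genes), and in *nrx-1* (tm1961) 3 and 20 (18% and 21.1%). The numbers were 3 and 9 in *nlg-1* (ok259) (15.8% and 7.49%) and 4 and 8 in *nlg-1* (tm474) (8.2% and 6.85%). Taken singly, a mutant library had 10 to 20 of the 55 above the N2 range and 19 to 39 below it, against 33.4% to 47.7% of all genes above and 28% to 40.3% below.

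Protease inhibitors had median fold changes above 0, as did all genes tested. Of 8 cystatins and serpins tested, 7 had a log2 fold change above 0 in both *nrx-1* strains, 5 in *nlg-1* (tm474) and 6 in *nlg-1* (ok259). The share of all genes above 0 was not computed, so these counts are not read as a result about the list. The medians were 0.69 with the ok1649 allele and 0.79 with the tm1961 allele of *nrx-1*. They were 0.53 with the ok259 allele and 0.37 with the tm474 allele of *nlg-1*. The medians over all genes were 0.16, 0.11, 0.03 and 0.08, with the alleles in the same order. In that order 2, 3, 1 and 1 were higher at an unadjusted p below 0.05 (edgeR), or 25%, 37.5%, 12.5% and 12.5% of the 8, against 13%, 18.6%, 6.44% and 5.2% of all genes, and 0 were lower. *cpi-1*, a cystatin that inhibits cysteine proteases, had the largest value in each strain. It had 29.7, 28.7 and 27 CPM in N2, 58.8, 133 and 207 CPM in *nrx-1* (ok1649), 46.1, 101 and 222 CPM in *nrx-1* (tm1961), 29.5, 104 and 143.8 CPM in *nlg-1* (ok259) and 132, 136 and 43.1 CPM in *nlg-1* (tm474). All mutant libraries were above N2 except replicate 1 of *nlg-1* (ok259), which was at the N2 level.

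The log2 fold changes of *cpi-1* were 2.11 ± 0.57, 2.15 ± 0.56 and 1.78 ± 0.48 in the first, the second and the last strain of that order (edgeR, adjusted p = 0.212, 0.0753 and 0.588), and in *nlg-1* (ok259) the level was 2.83-fold that of N2 (adjusted p = 0.344). Under the replicate block it was 1.87 in *nrx-1* (tm1961), with an adjusted p of 0.0161. The smallest values did not pass the test. *srp-1*, a serpin, had -0.08 in *nrx-1* (tm1961), which was above 0 with library totals (0.034), and -0.36 in *nrx-1* (ok1649), where it was -1.06 with an adjusted p of 0.0319 (edgeR) on leaving out replicate 1 of the strain. *srp-6*, the serpin that guards against lysosomal protease release, had -0.07 in *nlg-1* (ok259), also above 0 with library totals (0.12), and *srp-3* had -0.16 in *nlg-1* (tm474).

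Other lysosomal and luminal hydrolases, listed with the lysosomal membrane proteins *lmp-1* and *scav-3*, were split between higher and lower. Of 23 tested, 1, 6, 4 and 2 were higher and 1, 3, 0 and 2 lower at an unadjusted p below 0.05, with strains in the order used for *cpi-1* (edgeR). The higher were 4.35%, 26.1%, 17.4% and 8.7% of the list against 13%, 18.6%, 6.44% and 5.2% of all genes, and the lower 4.35%, 13%, 0% and 8.7% against 5.11%, 15.6%, 7.76% and 3.21%. The medians were -0.05, 0.14, 0.03 and -0.16. *lipl-3*, a lysosomal lipase induced by fasting, had 3.66, 3.51 and 10.8 CPM in N2 and 0.16, 0.135 and 0 CPM in *nlg-1* (tm474), which are 1, 3 and 0 counts against 77 to 304 in N2 (log2 fold change -6.14 ± 1.05, edgeR, adjusted p = 0.588; DESeq2 adjusted p = 2.06e-06), a fitted value that also depends on the prior count. It was also below N2 in *nrx-1* (ok1649), with 0.146, 0.715 and 1.6 CPM, and replicate 1 of *nrx-1* (tm1961) was above N2 at 15.9 CPM.

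*ppt-1*, a palmitoyl-protein thioesterase of the lysosome, had the largest log2 fold changes of the hydrolases in the other 3 strains, 1.69 ± 0.62, 1.68 ± 0.46 and 1.84 ± 0.72 (edgeR, adjusted p = 0.227, 0.0762 and 0.33, and 0.0103 under the replicate block in *nrx-1* (tm1961)). In *nrx-1* (tm1961) the lowest was *gba-2*, a glucocerebrosidase, at -1.60 ± 0.51 (adjusted p = 0.0887, and 0.0435 under the block). *lipl-3* was lowest in *nlg-1* (ok259) at -1.42 ± 0.91, and *lipl-6*, a lipase, was largest in *nlg-1* (tm474) at 1.12 ± 1.12, with a value of -0.73 without replicate 3 of the strain.

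Of 18 other peptidases tested, 1 was higher at an unadjusted p below 0.05 in each strain (edgeR), which is 5.56% of the list against 13%, 18.6%, 6.44% and 5.2% of all genes. In the same order 0, 5, 0 and 0 were lower, and the 5 in *nrx-1* (tm1961) are 27.8% of the list against 15.6% of all genes. The medians were 0.02, -0.35, 0 and 0.13. *pcp-5*, a prolyl carboxypeptidase-like gene, had 41.5, 42.5 and 37.3 CPM in N2, 119, 90.3 and 101 CPM in *nrx-1* (tm1961) and 66, 159 and 185 CPM in *nlg-1* (ok259), with no overlap. Its log2 fold changes were 1.28 ± 0.56, 1.39 ± 0.27 and 1.54 ± 0.52 in the first 3 strains (edgeR, adjusted p = 0.275, 0.0745 and 0.301, and 0.0119 under the block in *nrx-1* (tm1961)). *pcp-2* was the largest in *nlg-1* (tm474) at 1.42 ± 0.51.

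*lap-2*, a leucine aminopeptidase, was the lowest of these peptidases in *nrx-1* (tm1961). It had 357, 404 and 294 CPM in N2 and 135, 109 and 70.2 CPM in *nrx-1* (tm1961), a log2 fold change of -1.71 ± 0.35 (edgeR, adjusted p = 0.0745, and 0.00905 under the block). In the same 4 libraries it was at 329.8 to 578 CPM, within the N2 range or above it, whereas *asp-1* was within its N2 range there. *acn-1*, an ACE-like protein needed for molting, was lowest in *nrx-1* (ok1649) at -1.22 ± 0.94, *pcp-4* in *nlg-1* (ok259) at -1.30 ± 0.65 and *dpf-1*, a dipeptidyl peptidase, in *nlg-1* (tm474) at -0.30 ± 0.56.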

How the data were processed

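Total RNA of 15 whole-worm samples, 3 per strain, was sequenced, and the deposited table holds raw counts per gene for each sample, which the authors made from reads aligned to WBcel235. Base calls came from bcl2fastq 2.20 per the submitters' processing notes. The strand setting and the annotation release of the counting are not given in the sources used here.

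Counts were used as deposited. Each strain was compared with the same 3 N2 libraries by edgeR's quasi-likelihood test (edgeR 4.0.16, R 4.3.3), with TMM factors, filterByExpr and Benjamini-Hochberg adjustment over all genes tested. A gene was called at an adjusted p below 0.05 together with a log2 fold change above 1 in size, and counts at an unadjusted p below 0.05 are also given. An F test on 15 libraries compared the 5 strains. Standard errors were derived from the log2 fold change and the F statistic. Alternatives were DESeq2 1.42.0, other scalings and filters, the replicate number as a block, the share of counts on *rpr-1*, R144.15 and ZC155.8 as a covariate, and leaving out single libraries. The comparisons between mutant strains and the ratio of *asp-12* to *asp-5* were chosen after seeing the data. The scripts were tested on simulated data.

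The members and lists were chosen with earlier results of these data known. Named genes were *asp-12* and *nep-16*, the 3 largest and 3 smallest changes per strain at an unadjusted p below 0.05, the 6 smallest p of the F test, the 2 most abundant members per family, and the extremes of the lists. Other genes named were chosen after their values were seen. No libraries of a strain were copies of each other (chi-square per degree of freedom of at least 30.7). Deviations of same-numbered N2 and *nrx-1* (tm1961) libraries correlated at 0.731, 0.22 and 0.666 for replicates 1, 2 and 3, so the values under the replicate block are printed beside those of the main, unpaired test for that strain. The pairing rests on these correlations alone.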

Additional observations from a re-analysis of the deposited data

How the results depend on the processing

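Counts of members are given at an adjusted p below 0.05 with a log2 fold change above 1 in size (the former). Counts at an unadjusted p below 0.05 are the latter. Percentages are of all genes tested at the same setting, higher and then lower. For the unadjusted p and the F test, the share of all genes was computed here for the main test alone. Counts from their alternatives therefore cannot be set against it. In *nrx-1* (ok1649) the former was 0 (0% and 0.0251%), and 3 with DESeq2 (2.29% and 1.44%) and 1 with library totals (0% and 0.0188%). It was 1 without a filter on low counts (0.469% and 0.622%) and 1 with the share covariate (0% and 0.0345%). With single libraries left out it was 0 to 32, the largest without replicate 1 of the strain (21.2% and 24.6%). The latter was 12, and 7 to 38. In *nrx-1* (tm1961) the former was 0 (0% and 0%), and 14 with DESeq2 (10.3% and 9.53%) and 1 without a filter (0.00696% and 0.0209%). It was 26 under the replicate block (16% and 15.5%). With libraries left out it was 0 to 26, the largest without replicate 1 of the strain (18.9% and 17.6%). The latter was 20, and 7 on 15 libraries, 35 under the replicate block and 8 with the covariate, and 14 to 35 when libraries were left out. In *nlg-1* (ok259) the former was 0 (0% and 0%), and 3 with DESeq2 (1.31% and 2.7%). With libraries left out it was 0 to 28, the largest without replicate 1 of the strain (19.4% and 22.9%). The latter was 12, and 7 on 15 libraries, 6 with the covariate and 4 to 34. In *nlg-1* (tm474) the former was 0 (0% and 0%), and 1 with DESeq2 (0.116% and 0.171%) and 1 without a filter (0.386% and 0.247%). It was 0 in each case with a library left out, as for all genes (0% and 0%). The latter was 6, and 12 with the covariate and 2 to 17. The F test called 1 member, and 2 with DESeq2, library totals, no filter or the covariate, and 0 to 2 with libraries left out. Its call of *nep-16* was lost without *nrx-1* (tm1961) replicate 2 (adjusted p = 0.0567, edgeR) and without *nlg-1* (tm474) replicate 2 (0.0771). The cause was not tested.

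Under the replicate block the unadjusted counts were 16 in *nrx-1* (ok1649), 4 in *nlg-1* (tm474) and 8 in *nlg-1* (ok259). The share of all genes was not computed for them. At an adjusted p 0 members were called, as for all genes (0%). These strains share only replicate numbers with N2, with correlations from -0.736 to 0.282. The F test kept its 1 call under the block.

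Of the single-gene log2 fold changes, 29 alternatives turned the sign, and the cause was not tested. With the covariate, *srp-1* was 0.95, *nep-17* 0.47, *asp-1* 0.74 and *lap-2* 0.40 in *nrx-1* (tm1961). The share did not overlap between that strain and N2, so share and strain cannot be told apart there. The covariate also gave *srp-1* 0.36 in *nrx-1* (ok1649), and *nep-16* -2.06, *srp-6* 0.20 and *pcp-4* 0.59 in *nlg-1* (ok259). *srp-1* in *nrx-1* (tm1961) was 0.034 with library totals and ran from -0.81 to 0.19 with single libraries left out. *nep-16* in *nlg-1* (ok259), 0.008 in the report's test, was -0.003 without a filter, -0.13 under the replicate block, and -0.52 to 0.58 with libraries left out. *srp-6* there was 0.015 with DESeq2, 0.175 on 15 libraries, 0.039 with DESeq2's size factors, 0.12 with library totals, 0.07 with a CPM filter, 0.023 without *rpr-1*, R144.15 and ZC155.8, and -0.20 to 0.22 with libraries left out. With libraries left out of the *nlg-1* (tm474) comparison, *srp-3* ran from -1.02 to 0.17, *lipl-6* from -0.73 to 2.38 and *dpf-1* from -0.92 to 0.006. A further 63 alternatives gained a call. None of these fold changes had a call to lose. With library totals in place of TMM, the median log2 fold change of all genes was -0.07 (0.08 with TMM) in *nlg-1* (tm474), 0.18 (0.03 with TMM) in *nlg-1* (ok259), and 0.25 (0.11 with TMM) in *nrx-1* (tm1961).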
